A study of Mus musculus with 16 samples.

Results

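Promoter Capture Hi-C was used to map the chromatin contacts of 9 gene promoters of the heat shock and temperature response in mouse liver: Hspa8, Hsp90aa1, Hsp90ab1, Hsph1, Hspa5, Hspa1b, Dnajb1, Hsf1 and Cirbp. The livers came from wild type C57BL/6 males, labelled as 8 weeks of age, that were kept under 12 h of light and 12 h of dark with free access to food, and were collected at ZT0 (lights on), ZT6, ZT12 (lights off) and ZT18. All 4 groups therefore share strain, sex, age and diet, and differ by the hour. Each timepoint had 3 pools of 2 livers, which were merged before contacts were called, so no value below has a replicate error and no difference between timepoints could be tested. Members were chosen as gene names, and their contacts are all listed pairs with an end on the HindIII fragment that holds the gene start (mm9, GENCODE vM1). Such a fragment, when listed as a captured fragment, is called a bait. Of the 9 gene starts, 8 lay on a bait, and these 8 baits had 123 of the 247177 distinct pairs in the 4 lists. A listed pair has a CHiCAGO score of at least 5, a transformed weighted p-value, higher the more the ligation reads exceed a background fitted to distance. A pair absent from a list may lie just under that minimum. Whole liver was used, so a contact in fewer cells and a weaker contact in all cells cannot be told apart, and the lists hold no expression values by which the tissue could be checked.

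Heat shock proteins are chaperones, which bind unfolded proteins and help them to fold or to be degraded. When proteins unfold, heat shock factor 1, the product of Hsf1, forms trimers and binds heat shock elements, arrays of inverted repeats of a short unit in the promoters of chaperone genes. Body temperature of the mouse rises in the active dark phase, several liver chaperone mRNAs oscillate over the day, and Cirbp, which encodes an RNA-binding protein induced by mild cold, is known to oscillate in the opposite direction.

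The trimer binds 3 inverted units in a row. In the windows from 250 bases before to 50 bases after the gene start, the letters GAANNTTCNNGAA or TTCNNGAANNTTC, on either strand, were found for 0 of the 9 members and in 0.483% of 22380 protein-coding promoters. The gene start of the annotation is the outermost of all transcript starts, and the members have between 2 and 9 of these. With windows set at every annotated transcript start, 3 of the 9 members held the element (Hspa8, Hsp90aa1 and Hsph1), against 1.21% of all protein-coding genes, whose median number of transcript starts was 2. A looser search for 2 adjoining units found 3 of 9 members (Hsp90aa1, Hsph1 and Hspa1b) against 14.3% of promoters. The ER stress response element (CCAAT, then 9 bases of any kind, then CCACG), to which the unfolded protein response factors bind, was found at a transcript start of Hspa5 alone among the members. All genes with it at any transcript start made up 0.152%, and 0.0983% had it at the gene start. The canonical E-box CACGTG, which the clock factors CLOCK and BMAL1 bind, was found for Hsph1 alone, against 7.78% of promoters and 13.1% of genes at any transcript start. The matches are shown because they place the elements relative to the captured fragments. They were read from mm9, 5′ to 3′ on the strand of the gene, with the matched letters in capitals.
Hspa8, first element (chr9:40609138-40609166, plus strand): gcgagcgtGAAAGTTCCAGAAcgccgcgg
Hspa8, second element (chr9:40609296-40609324, plus strand): cggcacccTTCTGGAAGGTTCtaagacag
Hsp90aa1 (chr12:111934589-111934617, minus strand): gagggttcTTCCGGAAGGTTCcggaggct
Hsph1 (chr5:150438855-150438883, minus strand): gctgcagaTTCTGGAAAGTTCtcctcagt
Hspa5, ER stress response element (chr2:34627540-34627568, plus strand): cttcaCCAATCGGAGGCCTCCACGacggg
Both Hspa8 elements lay on the Hspa8 bait and the Hspa5 element on the Hspa5 bait, and the Hsph1 element lay on a fragment that was not a bait. The Hsp90aa1 element lay on another HindIII fragment than the bait, chr12:111933012-111935992, which holds 5 of the transcript starts of the gene, was not a bait and was the other end of only 3 listed pairs. A match of letters is a description of the sequence and not a binding site.

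The members had between 0 and 34 contacts (the histogram of contacts per bait). The 8 members on baits had a median of 16 contacts, and all 18165 baits had a median of 9.0, with quartiles of 4.0 and 21.0. Captured fragments without any listed pair are not among these baits. Cirbp had 34, more than 87.1% of baits, and Dnajb1 had 1, the smallest number a bait in the lists can have. Hspa5 had 21 contacts, Hsp90aa1 19, Hspa8 18 and Hspa1b 14. Hsp90ab1 and Hsf1 had 8 each, which 52.1% of baits exceeded. Bait length varied from 388 bp for Dnajb1 to 16294 bp for Hspa1b, around a median of 5861 bp over all baits. No contact ran between chromosomes, which in 123 allows a share of up to 2.44%, and over all pairs the share was 0.0801%.

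**Figure D1:**
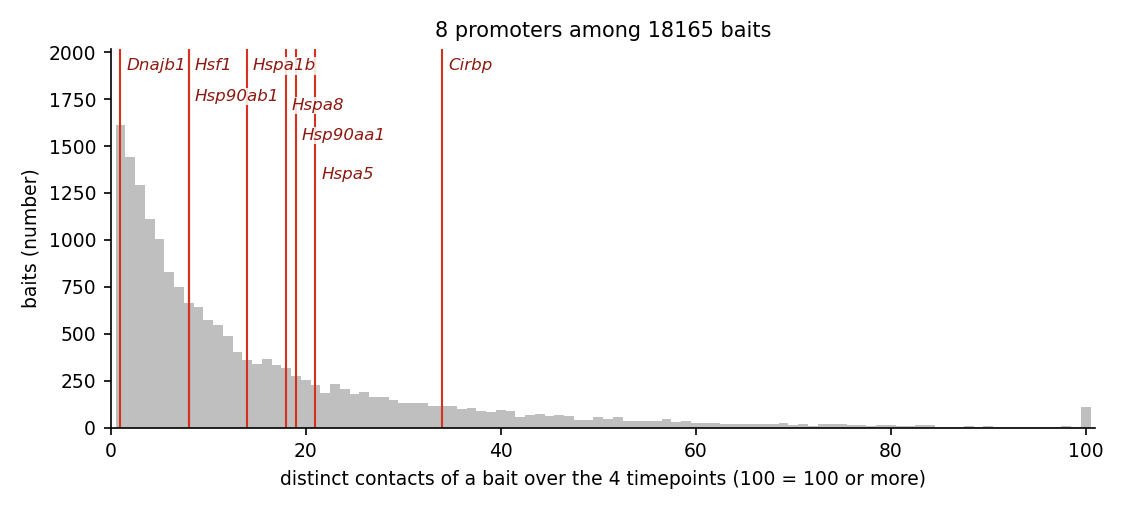
Histogram of the number of distinct contacts per bait over the 4 timepoints (x axis, baits of 100 or more in the last bar) for all 18165 baits (y axis, number of baits), with red lines at the 8 members. Dnajb1 stands at 1, Hsf1 and Hsp90ab1 share the line at 8 near the median of 9.0, and Cirbp stands at 34.

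The lists were assigned to timepoints by the sample labels. A summary given with the study orders the later lists otherwise, and under that order the ZT6 and ZT18 values in the text would belong to ZT18 and ZT12, and those of ZT12 to ZT6. Where 4 values follow each other without times, they are in the order ZT0, ZT6, ZT12 and ZT18.

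Of the 123 contacts, 41 (33.3%, Wilson 95% interval 25.6 to 42.1) were listed at all 4 timepoints, against 32.5% of all pairs. Another 41 were listed at 1 timepoint only, against 35.2% of all pairs. Both shares were close to those of the whole series. Intervals of this kind cover counting error only, and neighbouring fragments contacted by the same bait are not independent. By member, 9 of 18 Hspa8 contacts were listed at all 4 timepoints, 8 of 19 for Hsp90aa1, 10 of 34 for Cirbp, 5 of 21 for Hspa5, 4 of 14 for Hspa1b, 3 of 8 for Hsf1, 2 of 8 for Hsp90ab1 and 0 of 1 for Dnajb1. A score of at least 10 at any timepoint was reached by 32 contacts (26.0%, interval 19.1 to 34.4), against 21.5% of all pairs, and 12 of these belonged to Cirbp and 9 to Hsp90aa1.

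The members' contacts ended on other baits in 50 of 123 cases (40.7%, interval 32.4 to 49.5), against 26.7% of all contacts when each is counted from its bait. The share ranged from 0 of 18 for Hspa8 to 8 of 8 for Hsf1. It was 19 of 34 for Cirbp, 8 of 14 for Hspa1b, 6 of 8 for Hsp90ab1, 4 of 21 for Hspa5 and 4 of 19 for Hsp90aa1. Gene density also differed around the members, and other protein-coding gene starts within 200 kb numbered 3 around Hspa8, 7 around Hspa5, 8 around Hsp90aa1, 9 around Dnajb1, 14 around Hsp90ab1, 25 around Cirbp, 26 around Hsf1 and 39 around Hspa1b. Over protein-coding genes on baits the median of this number was 7.0 and the upper decile 19.0. Cirbp, Hsf1 and Hspa1b, all above that decile, had 19, 8 and 8 of the 50 contacts with baits. The part of gene density in the share was not tested. Other ends without a gene start overlapped an exon in 31 cases (25.2%), an intron but no exon in 12 (9.76%, interval 5.67 to 16.3) and no annotated gene in 28 (22.8%), beside 24.2%, 21.2% and 26.5% of all contacts. The median distance between fragment midpoints was 127 kb (95% interval 102 to 163, from order statistics) for the members and 162 kb for all pairs, and 1 contact of Cirbp was longer than 1 Mb.

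**Figure D2:**
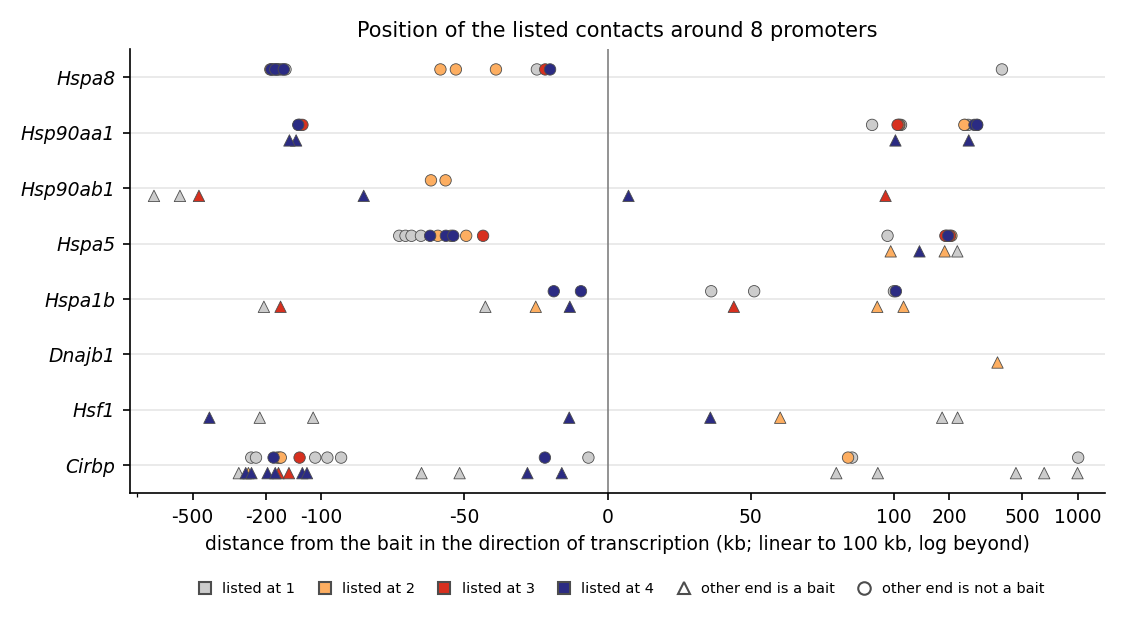
Distance of each listed contact from its bait, in kb along the direction of transcription (x axis, linear to 100 kb and logarithmic beyond), for the 8 members on baits (rows). Colour gives the number of timepoints at which the contact was listed, triangles are other ends that are baits and circles those that are not. Hspa8 has circles only, nearly all upstream, and Hsf1 has triangles only.

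Hspa8 encodes HSC70, the HSP70 chaperone made without stress, and its bait (chr9:40607478-40616459, which also holds the starts of 3 small nucleolar RNA genes) had 17 contacts upstream and 1 downstream. Of these, 11 formed a group from 156.6 to 189.4 kb upstream, chr9:40422067-40457632, none of them overlapping an annotated gene, and 8 of the 11 were listed at all 4 timepoints. The highest score lay on chr9:40439207-40445866, at 169.4 kb, with 10.74 (ZT0), 15.04 (ZT6), 12.54 (ZT12) and 16.04 (ZT18). The fragment beside it, chr9:40438051-40439206, scored 10.17, 14.49, 11.15 and 10.19 in the same order, and these were the only Hspa8 contacts at 10 or more at every timepoint. The Hspa8 contact of chr9:40427316-40433131 had 5.85 (ZT0), 11.79 (ZT6), 5.69 (ZT12) and 10.62 (ZT18), a ratio of 2.07 between the highest and the lowest.

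A second group of 6 Hspa8 contacts lay 20.1 to 58.4 kb upstream, over 9030425E11Rik (now Clmp, which encodes a cell adhesion protein). It had 2 (ZT0), 6 (ZT6), 1 (ZT12) and 5 (ZT18) contacts. The 3 farthest of them were listed at ZT6 and ZT18 only, with scores of 8.06 and 5.15 at 58.4 kb, 9.61 and 6.52 at 53.0 kb, and 7.2 and 5.61 at 39.0 kb. In all, Hspa8 had 11 (ZT0), 16 (ZT6), 9 (ZT12) and 15 (ZT18) contacts, so that ZT6 and ZT18 were high and ZT0 and ZT12 low. This order was not kept with other ends within 10 kb counted as 1 contact, where Hspa8 had 3, 2, 2 and 2. At a score of at least 10 it had 3, 3, 2 and 4. Being listed at ZT6 and ZT18 only, a pattern singled out after its values were seen, held for 4 of its 18 contacts, for 6 of the 105 of the other members and for 2.93% of all pairs. Several of these were adjoining fragments, and each of the other combinations of 2 timepoints held for 2 or 6 of the members' 123 contacts.

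Hsp90aa1 encodes the stress-inducible form of HSP90, a chaperone of kinases and steroid receptors. Of the 8 transcript starts of the gene, 5, 1 and 1 lay on other fragments that were not baits, so only the fragment of the gene start is described. Its bait (chr12:111939960-111941417) had 13 contacts at each of the 4 timepoints, although only 8 of the 19 distinct contacts were the same at all of them. The contacts fell into 3 groups, 6 at 126.7 to 149.1 kb upstream, 6 at 92.4 to 109.4 kb downstream and 7 at 241.6 to 283.6 kb downstream, each with a promoter bait in it. At 137.1 kb upstream, the bait of Stk30 (now Mok, a protein kinase gene) and 4921507G05Rik scored 13.02 (ZT0), 10.23 (ZT6), 13.7 (ZT12) and 13.68 (ZT18). The adjoining bait with the start of Zfp839, a zinc finger gene, scored 7.15, 6.78, 11.29 and 12.32. Downstream, the start of Dync1h1, the heavy chain of cytoplasmic dynein, scored 8.99, 8.26, 11.82 and 9.21 at 102.0 kb. The start of Ppp2r5c, a regulatory subunit of protein phosphatase 2A, scored 7.11, 6.28, 10.99 and 6.1 at 255.3 kb. All 4 promoters were contacted at every timepoint, and 3 of the 4 scored lowest at ZT6, with Ppp2r5c lowest at ZT18.

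Beyond Ppp2r5c, a pair of short HindIII fragments without an annotated gene had the highest single scores of Hsp90aa1, both at ZT12. The outer, chr12:111656923-111657154, scored 11.89 (ZT0), 6.6 (ZT6), 17.09 (ZT12) and 8.97 (ZT18). The inner, chr12:111657155-111657408, scored 6.97, 7.49, 13.79 and 9.81. For both, ZT12 was the highest value, and for the outer the ratio of highest to lowest was 2.59. At ZT0, ZT6 and ZT18 the bait of Stk30 scored higher than either fragment, with 13.02, 10.23 and 13.68. Among members, 3 of 41 contacts listed at all 4 timepoints reached a ratio of 2 (the outer fragment of Hsp90aa1 and 2 fragments of Hspa8), against 6.63% of all such pairs, whose median ratio was 1.44. As these fragments are short enough to be shown whole, they are printed here with a fragment near the Hspa1b bait that is described further on. Capitals mark the part of the HindIII site at the start of each fragment, and the sequences were read from mm9.
Hsp90aa1, outer fragment (chr12:111656923-111657154, plus strand): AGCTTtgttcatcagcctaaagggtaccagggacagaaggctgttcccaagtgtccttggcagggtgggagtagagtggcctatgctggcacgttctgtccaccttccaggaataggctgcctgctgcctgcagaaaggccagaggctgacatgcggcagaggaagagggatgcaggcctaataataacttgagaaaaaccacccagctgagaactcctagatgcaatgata
Hsp90aa1, inner fragment (chr12:111657155-111657408, plus strand): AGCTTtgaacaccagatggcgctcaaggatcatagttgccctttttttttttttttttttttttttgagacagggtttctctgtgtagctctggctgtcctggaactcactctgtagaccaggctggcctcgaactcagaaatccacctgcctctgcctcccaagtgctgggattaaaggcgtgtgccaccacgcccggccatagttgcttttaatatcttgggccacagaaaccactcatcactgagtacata
Hspa1b (chr17:35102650-35102882, plus strand): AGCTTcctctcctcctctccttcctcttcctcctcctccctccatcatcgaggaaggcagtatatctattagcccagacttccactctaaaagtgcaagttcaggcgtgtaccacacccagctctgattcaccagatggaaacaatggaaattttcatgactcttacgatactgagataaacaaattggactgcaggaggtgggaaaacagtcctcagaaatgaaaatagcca
The fragments of Hsp90aa1 had a GC content of 53.0% and 47.6% and that of Hspa1b 45.9%.

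Hsp90ab1, the constitutive HSP90 gene, had 8 contacts from its bait (chr17:45706335-45711569), with 4 (ZT0), 6 (ZT6), 3 (ZT12) and 7 (ZT18). The contact with the start of Capn11, a calpain protease gene, at 85.2 kb had the highest score, 11.84 (ZT0), 8.28 (ZT6), 11.1 (ZT12) and 7.48 (ZT18). The neighbouring promoter of Slc35b2, which encodes a transporter of the sulphate donor of the Golgi, was contacted at 7.3 kb with scores from 5.39 to 5.73. Both were listed at every timepoint, and the Slc35b2 contact was among the most even of the members, with a ratio of 1.06. The promoter of Vegfa, the vascular endothelial growth factor gene, was contacted at 462.6 kb with 6.02 at ZT0, 5.55 at ZT12 and 8.96 at ZT18, and was not listed at ZT6. Spats1 was listed at 3 timepoints, and Gtpbp2 (ZT18, 5.26) and Zfp318 (ZT6, 5.56) at 1 each. The remaining contacts, 56.6 and 61.7 kb upstream, were listed at ZT6 (6.76 and 5.12) and ZT18 (6.61 and 7.24) only.

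Hspa1b encodes the stress-inducible HSP70, and its bait (chr17:35085334-35101627) lies in the class III region of the mouse MHC. This bait also holds the starts of 1110038B12Rik, Gm8696, AC087117.1, AC087117.2 and AC087117.3, so that their contacts cannot be told from those of Hspa1b. It had 8 (ZT0), 9 (ZT6), 8 (ZT12) and 8 (ZT18) contacts, of which 4 were the same throughout. Its contact with the neighbouring bait that holds the starts of Hspa1a and Hspa1l, the other HSP70 genes of the cluster, had the highest score of any member, with 18.77 (ZT0), 19.69 (ZT6), 23.01 (ZT12) and 22.69 (ZT18). Only 2.19% of all pairs reached a score as high at any timepoint. The distance was 13.2 kb. Hspa1a and Hspa1b are near-identical copies, and 11.7% of the 50-base stretches of the Hspa1b bait were also found on the Hspa1a bait, and 25.5% of those of the Hspa1a bait on the Hspa1b bait. The nearest of them lay 2154 bp from an end of the Hspa1b bait and 1102 bp from an end of the Hspa1a bait, while the capture probes were placed at fragment ends. Whether misplaced reads had a part in the score was not tested.

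The small fragment between these baits, chr17:35102650-35102882, shown above, was also contacted at all timepoints, with 13.44, 9.77, 14.81 and 9.22. Of the other Hspa1b contacts, the exonic fragment of Rdbp (now Nelfe, a subunit of the negative elongation factor), 102.6 kb downstream, scored 8.18 (ZT0), 8.77 (ZT6), 9.72 (ZT12) and 6.49 (ZT18). The promoters of Cfb (complement factor B), Slc44a4, Lsm2, Vars and Csnk2b were each listed at between 1 and 3 timepoints, with scores of at most 7.39.

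Dnajb1, the HSP40 partner that stimulates the ATPase of HSP70, has the shortest bait of the members, chr8:86131762-86132149. Its sole contact was with the start of Prkaca, the catalytic subunit of protein kinase A, at 365.0 kb, with 6.33 at ZT0 and 5.93 at ZT18 and no listing at ZT6 or ZT12. Hsph1, which encodes the HSP110 nucleotide exchange factor of HSP70, had no listed pair at any timepoint: its start lies on chr5:150433750-150439920, which was no bait in any list. Nothing can be said of its contacts, since a fragment that was not captured and a captured fragment without a call look alike in the lists. The nearest listed bait, at the start of Wdr95 105 kb away, had 1 contact.

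Hspa5 encodes BiP, the HSP70 of the endoplasmic reticulum and a target of the unfolded protein response. From its bait (chr2:34625516-34629517) it had 9 (ZT0), 16 (ZT6), 11 (ZT12) and 13 (ZT18) contacts. Upstream, all 11 contacts lay in Gapvd1, an endosomal trafficking gene, from 43.5 to 72.8 kb. The best of them, on chr2:34570040-34572091, scored 6.59 (ZT0), 9.08 (ZT6), 7.73 (ZT12) and 5.54 (ZT18). This group had 5 (ZT0), 9 (ZT6), 6 (ZT12) and 5 (ZT18) contacts, but only 3 of the 11 were listed at all 4 and none scored above 9.08.

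Downstream, Hspa5 contacted the promoter of Psmd5, a chaperone of proteasome assembly, with 10.34 at ZT12 and 8.64 at ZT18, at 98.9 kb. The promoter of Traf1, a signalling adaptor gene, was likewise listed at ZT12 (7.21) and ZT18 (5.67) only. Being listed at ZT12 and ZT18 only was found for 3.5% of all pairs and for 6 of the members' 123 contacts. The Hspa5 contact adjoining the Traf1 bait, chr2:34817359-34818783, was listed at ZT0 (5.03), ZT6 (7.9) and ZT18 (5.06). That adjoining the Psmd5 bait, chr2:34724797-34725886, was listed at ZT6 (5.65). The promoter of Phf19, a Polycomb-associated gene, was listed throughout, with 7.66, 5.47, 9.46 and 8.65. At 197.2 kb, the intergenic fragment chr2:34821865-34827660 scored 5.18 (ZT0), 9.14 (ZT6), 6.09 (ZT12) and 8.92 (ZT18). Hspa5 has a further transcript start on the next fragment, chr2:34629518-34636244, also a bait, which had 49 contacts (22, 37, 33 and 33 by timepoint) and shared 19 of the 21 of the gene start. On both baits ZT0 had the fewest contacts and ZT6 the most.

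**Figure D3:**
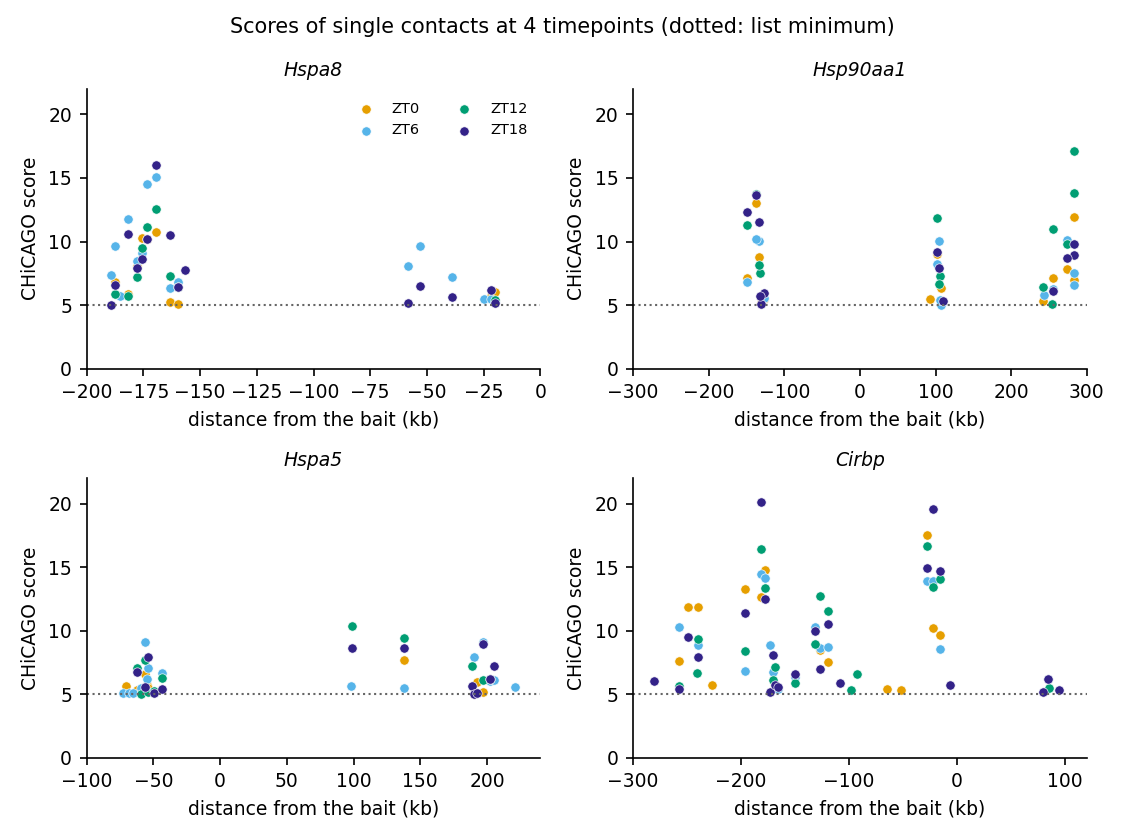
CHiCAGO scores (y axis) of single contacts of Hspa8, Hsp90aa1, Hspa5 and Cirbp against distance from the bait in kb along the direction of transcription (x axis), coloured by timepoint, with the list minimum of 5 dotted and the few contacts beyond the axis limits left out. The distal group of Hspa8 reaches 16.04, the farthest fragments of Hsp90aa1 reach 17.09 at ZT12, and Cirbp has peaks of 20.16 and 19.61 at ZT18.

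Hsf1 shares its bait (chr15:76306633-76310390) with Bop1, a ribosome biogenesis gene transcribed the other way, so that the contacts of these promoters cannot be told apart. All 8 of its other ends were promoter baits. It had 4 (ZT0), 3 (ZT6), 7 (ZT12) and 4 (ZT18) contacts, and ZT12 stood alone as the high value. The contact with Dgat1, an enzyme of triglyceride synthesis, at 35.9 kb scored 7.57 (ZT0), 6.3 (ZT6), 11.44 (ZT12) and 10.09 (ZT18). That with Scx, a transcription factor of tendon cells, at 13.4 kb scored 11.11, 8.55, 8.9 and 8.57, and that with Scrib and Puf60 at 405.7 kb scored 5.95, 6.87, 7.17 and 5.68. These 3 were listed at every timepoint. The 4 listed at ZT12 only were the baits of Spatc1 (5.24), Fam203a (now Hgh1, 5.92), Cyhr1, Kifc2 and Foxh1 (6.64), and Gpt and Mfsd3 (5.39), all at scores below 7. Being listed at ZT12 only was found for 8.56% of all pairs and for 9 of the members' 123 contacts, of which 4 were those of Hsf1 and 4 of Cirbp. The bait with Fbxl6 and Gpr172b was listed at ZT0 (5.43) and ZT18 (6.32).

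Cirbp had the most contacts of the members, 14 (ZT0), 17 (ZT6), 18 (ZT12) and 26 (ZT18), from its bait chr10:79628324-79630600. Upstream lay 26 of the 34, within 281.0 kb. Its highest score was on chr10:79447210-79448037, a fragment without a gene at 181.8 kb, with 12.63 (ZT0), 14.45 (ZT6), 16.47 (ZT12) and 20.16 (ZT18). An exonic fragment of Atp5d, chr10:79606797-79608407, scored 10.21, 13.89, 13.42 and 19.61, also highest at ZT18. In contrast, the bait with the starts of Dos and Atp5d, the latter a subunit of ATP synthase, scored 17.51 (ZT0), 13.9 (ZT6), 16.7 (ZT12) and 14.95 (ZT18), and that of Cnn2 (calponin) 14.75, 14.16, 13.33 and 12.48. These 4 were the only Cirbp contacts at 10 or more at every timepoint.

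Other promoters that Cirbp contacted with a score of at least 10 were those of Midn (9.7, 8.59, 14.11 and 14.74 by timepoint), Polr2e (8.49, 8.66, 12.75 and 7.0), Gpx4 (7.58, 8.73, 11.52 and 10.52) and Med16 (7.61, 10.26, 5.66 and 5.44). Polr2e and Med16 encode a subunit of RNA polymerase II and of Mediator, and Gpx4 the enzyme that reduces lipid peroxides. Arid3a scored 11.83, 8.88, 9.34 and 7.97, and the bait with Wdr18 and Grin3b 13.25, 6.85, 8.39 and 11.36, both highest at ZT0. The bait of C030046I01Rik (now R3hdm4) and Kiss1r was listed at ZT0 (11.84) and ZT18 (9.48) only. The highest score of these promoters thus fell at each of the 4 timepoints for at least 1 of them.

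The larger number of Cirbp contacts at ZT18 came from low scores. Of the 26, 8 were listed at ZT18 only, with scores between 5.17 and 6.07, among them the baits of Oaz1 at 656.3 kb and Pias4 at 995.8 kb. Being listed at ZT18 only was found for 8.5% of all pairs and for 12 of the members' contacts. At a score of at least 10, Cirbp had 7, 6, 7 and 8 contacts by timepoint. A further bait with transcript starts of Cirbp, chr10:79632578-79640844, had 22 contacts (9, 11, 17 and 15), 18 of them shared with the gene start bait, and there ZT12 had the most.

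**Figure D4:**
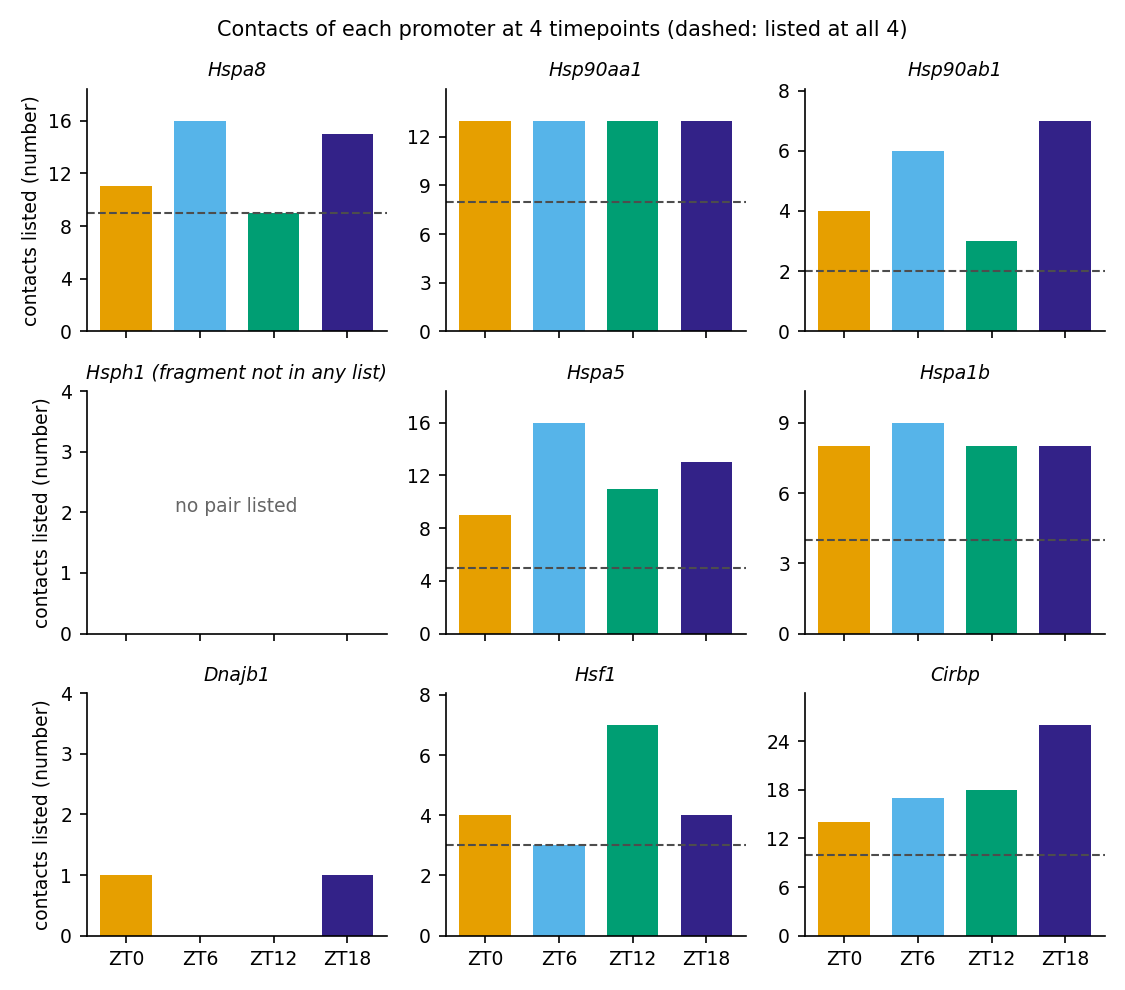
Number of listed contacts (y axis, each panel with its own scale from 0) of the 9 members at ZT0, ZT6, ZT12 and ZT18 (bars), with the number listed at all 4 timepoints as a dashed line. Hsp90aa1 has 13 at every timepoint, Cirbp 26 at ZT18 against 14 to 18 at the other timepoints, Hsf1 7 at ZT12, and Hsph1 none.

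Over all members, 64 (ZT0), 80 (ZT6), 69 (ZT12) and 87 (ZT18) contacts were listed, from lists of 146262, 154775, 151529 and 151347 pairs. A ratio of 2 between the highest and the lowest number of contacts was reached by 0 of the 5 members with at least 10 contacts. The interval was 0 to 43.4%, which includes the 24.4% found over the 8819 such baits. For Cirbp, Hspa8 and Hspa5 the numbers were 26 and 14, 16 and 9, and 16 and 9. Hsf1 and Hsp90ab1, left out with 8 contacts each, had 7 at the highest and 3 at the lowest. With no replicates, none of these differences could be set against a spread.

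Whether promoters have most contacts at their acrophase, the timepoint of highest RNA, was a question of the study. Of the members, 7 were in its list of circadian genes, with acrophases of ZT18 for Hspa8, Hsp90aa1, Hsp90ab1 and Hsph1, ZT0 for Hspa1b and Dnajb1, and ZT6 for Cirbp. After division by list size, 2 of the 6 with a bait had most contacts at the acrophase, against 27.4% of 1108 baits of circadian genes. These were Hsp90ab1, with 7 at ZT18, and Dnajb1, whose single contact was listed at both ZT0 and ZT18. After the division a tie in numbers goes to the smaller list, and so to ZT0 for Dnajb1. Counted in this way, 31.4% of all baits had most contacts at ZT0. Hspa8 had its most contacts at ZT6 and Cirbp at ZT18, neither of them the acrophase. This did not hold for Hspa8 at a score of at least 10, where its most contacts, 4, were at ZT18, nor under the other order of the lists, where its ZT6 list becomes that of ZT18.

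Other circadian gene starts lay on 5 of the 50 baits contacted (interval 4.35% to 21.4%), against 6.91% of contacts between baits. Hspa1b and Hspa1a shared an acrophase of ZT0, as did Dnajb1 and Prkaca. Cirbp contacted Csnk1g2, a casein kinase gene with the same acrophase of ZT6, at ZT6 only (6.1). Being listed at ZT6 only was found for 9.95% of all pairs, and under the other order of the lists this contact would belong to ZT18. The remaining promoters, Dync1h1 contacted by Hsp90aa1 and Dazap1 contacted by Cirbp, had an acrophase of ZT12. The share of pairs with the same acrophase among all contacts between circadian baits is not given, so nothing is concluded from these pairs.

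For each member with at least 5 contacts, the bait whose contacted fragments were most alike lay between 5.36 and 102 kb away on the same chromosome. Likeness is the number of shared fragments over the number contacted by either. It was highest for Cirbp, which shared 24 fragments with the Midn bait 16 kb away (0.6 of 40), making 70.6% of its own contacts and 80.0% of those of Midn. Hsf1 shared 5 with the Scrt1 bait (0.417), Hsp90aa1 9 with Dync1h1 (0.409) and Hspa5 19 with the next fragment (0.373). Hspa8 shared 7 with Gm16095, 83.2 kb upstream (0.389), and these were all of the contacts of that bait. For Hspa1b the bait was that of Zbtb12 (0.37) and for Hsp90ab1 that of Slc29a1 (0.333). As neighbouring baits lie at like distances from the same fragments, a likeness of this kind is a description.

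A wider set of 77 chaperone, co-chaperone and ER stress genes had 74 gene starts on 71 baits, with a median of 12.0 contacts and 33.4% of 1536 contacts listed at all 4 timepoints, beside the median of 9.0 and the 32.5% of all pairs. The medians were 7.0 for HSP70 and HSP110 genes, 23.5 for the HSP90 genes Hsp90b1 and Trap1, 19.0 for HSP40 genes, 11.0 for small heat shock proteins and chaperonins, 18.5 for co-chaperones, 7.0 for heat shock factors and cold-inducible genes and 16 for ER stress genes. The most contacts were those of Creld2 (136), an ER stress gene, Cdc37 (100), the kinase-specific partner of HSP90, and Cct4 (83), a chaperonin subunit. The fewest were those of Dnajc3, Hspa13 and Pdia4, with 2 each. A ratio of 2 between timepoints was reached by 10 of the 46 baits with at least 10 contacts, near the 24.4% of all such baits. Among these 10 was Rbm3, the other cold-inducible RNA-binding protein gene, named after its values were seen, with 17, 13, 25 and 28 contacts by timepoint. Like the gene start bait of Cirbp it had its most at ZT18. After division by list size, the same held for 26 of the 71 baits of the wider set, Rbm3 among them, and for 26.6% of all baits. Members and these genes contacted each other once, as Hspa1b with Hspa1a and Hspa1l. Within the wider set, Dnaja1 and Bag1 (9.71, 11.09, 9.77 and 8.06) and Cct4 and Ahsa2 (11.11, 9.84, 15.42 and 11.72) were in contact at every timepoint.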

How the data were processed

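Promoter Capture Hi-C libraries of mouse liver, 16 in all, came from 3 pools per timepoint, and 2 libraries of each timepoint are labelled pool A. The authors processed reads with HiCUP, merged libraries within timepoints and ran CHiCAGO to call interactions, on mm9. Each deposited list gives a CHiCAGO score for every pair of fragments called, always at least 5. Read depth per pair was not analysed here. A deeper list holds more pairs, so contact numbers were also compared at equal numbers of top-scoring pairs.

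The mm9 reference was cut in silico at HindIII sites into 823377 fragments, and 129886 of 129887 listed fragments were identical to one of them. Baits are fragments in the bait column of any list. Gene starts, exons and bodies came from GENCODE vM1, and present symbols from RefSeq names. Distances are between fragment midpoints, and Wilson 95% intervals cover counting error only. Circadian genes and acrophases were taken from the study's gene list, and its RNA values were not used. Motifs were searched on both strands of mm9. Counting functions were tested on simulated data. Python 3.11.15, pandas 2.3.3, numpy 2.4.6, scipy 1.17.1 and matplotlib 3.10.9 were used. Members, lists and rules were chosen with earlier results of these data known. Named contacts are, per member, the 3 with the highest score, all baits reaching a score of 10, every contact of Dnajb1, and contacts between members and listed genes. Others were named after their values were seen. From the wider gene set, the 3 baits with most and the 3 with fewest contacts were named.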

Additional observations from a re-analysis of the deposited data

How the results depend on the processing

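Which timepoint had the most contacts depended on the minimum score. With 7 as minimum the members had 29 (ZT0), 36 (ZT6), 39 (ZT12) and 39 (ZT18) contacts, and at 10 or more they had 16, 14, 20 and 17. At equal numbers of top-scoring pairs they had 64, 73, 68 and 82. With other ends within 10 kb counted as 1 contact, there were 26, 27, 27 and 30. Taking the baits of any transcript start of a member gave 95, 128, 119 and 135.

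The share listed at all 4 timepoints, 33.3%, was 25% at a score of at least 10, 47.5% with other ends within 10 kb counted as 1, and 71.5% when another end of the same bait within 10 kb was accepted at a timepoint. It was 35.1% at a score of at least 7 and 34.5% at equal numbers of pairs. The share of contacts ending on baits was 56.2% at a score of at least 10. Shares over all pairs are not given at these settings. The 32.5% and 26.7% above are for a score of at least 5 without merging, so these values cannot be set against them. The median distance was 143 kb at a score of at least 10 and 124 kb as the gap between fragments. The number of members with most contacts at their acrophase was 1 by raw numbers, since the Dnajb1 contact then tied. It was 2 at a score of at least 10 and 2 with the lists in the other order, but for different members. These were Hspa8 and Hspa1b in the former and Hspa8 and Dnajb1 in the latter, in place of Hsp90ab1 and Dnajb1. At a score of at least 10, Hspa1b had 2, 1, 2 and 1 contacts, and the division by list size gave the tie to ZT0. The heat shock element was found for 3 members with 2 adjoining units and for 3, by an alternative chosen after seeing the data, with windows at any transcript start. The causes were not tested.

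No paired analysis was possible because each list was called on its pools together, and for the same reason no pool was left out.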
